A study of Homo sapiens with 6 samples.

Results

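The genes of the cytosolic ribosomal proteins were compared between UE7T-9 control cells and UE7T-9 SRRM4 KO cells. Members were the protein-coding genes on autosomes or X with a symbol of the RPS or RPL series, of the stalk proteins RPLP0 to RPLP2, or RPSA. The rule found 84 of 58735 genes in the count table, 32 of the small and 52 of the large subunit, and it used no measured value. It also takes 7 paralogs of core members, namely RPL3L, RPL7L1, RPL10L, RPL22L1, RPL26L1, RPL39L and RPS27L. UE7T-9 is a human mesenchymal stem cell line from bone marrow, and the 3 control libraries (Control 1 to 3) are labelled WT. The 3 SRRM4 KO libraries come from a line that was transduced with a lentiviral CRISPR vector against SRRM4, selected with puromycin and cloned from a single cell. It is therefore 1 clone, and effects of the clone and of the edit cannot be told apart. SRRM4 is a splicing factor best known from neurons, and loss of its protein in the line was incomplete according to the study. All cells grew in the same medium. Whether the 3 libraries of a group came from separate cultures is not stated, so p-values measure the spread between these libraries.

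Ribosomes build all proteins of the cell from a small subunit, which reads the mRNA, and a large subunit, which joins the amino acids. Each subunit carries rRNA and about 1 copy of nearly every core ribosomal protein, so the cell needs the proteins in near equal amounts. Their mRNAs belong to the most abundant in growing cells. Most of them start with a C followed by a run of pyrimidines at the very 5′ end, the terminal oligopyrimidine (TOP) motif, through which mTOR and LARP1 control how strongly they are translated. Translation was not measured here, and an mRNA level says nothing about it.

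The start sites show this shared feature, which the rule did not use. RefSeq start windows (GRCh38.p14) were found for 67 of the 84 members, with 83 annotated starts. A C at the first base followed by 4 bases that are each C or T was present at 47 of the 83 starts (56.6%), against 4.07% of 35116 starts of all genes. By gene, 47 of 67 members (70.1%) had at least 1 such start, against 5.14% of 27305 genes. CTTTC within the first 20 bases was present at 33.7% of member starts and 2.82% of all starts. CCGGAAG, on either strand of the 300-base window, was present in 33.7% and 10.3%, and TATAAA in 8.43% and 11.5%. A match is a description of letters, and these motifs can overlap each other. The windows below hold 15 bases before and 15 bases from the annotated start, 5′ to 3′ on the gene's strand, with the pyrimidine run from the first base in capitals. Shown first are members with the largest rises or the highest levels, among them RPS29, whose start has no such motif.
RPS19 (chr19:41860240-41860269, plus strand): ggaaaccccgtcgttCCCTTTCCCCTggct
RPL10 (chrX:154398362-154398391, plus strand): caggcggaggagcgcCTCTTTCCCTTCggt
RPLP1 (chr15:69452803-69452832, plus strand): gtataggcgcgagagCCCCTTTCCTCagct
RPL38 (chr17:74203663-74203692, plus strand): aacggaagtctcgttCTTTTTCgtcctttt
RPS29 (chr14:49598696-49598725, minus strand): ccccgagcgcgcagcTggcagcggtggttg
RPL39 (chrX:119791616-119791645, minus strand): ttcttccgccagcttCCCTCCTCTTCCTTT

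The members that were lower carried the motif.
RPL31 (chr2:101002274-101002303, plus strand): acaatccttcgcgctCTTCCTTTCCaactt
RPL34 (chr4:108620561-108620590, plus strand): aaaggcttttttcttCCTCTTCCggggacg
RPL22L1 (chr3:170870181-170870210, minus strand): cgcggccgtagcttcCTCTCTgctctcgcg
The core members RPS27, RPL22 and RPL26 also carried it, while the paralogs RPS27L, which rose as well, and RPL26L1 did not start with a pyrimidine at the annotated site.
RPS27 (chr1:153990747-153990776, plus strand): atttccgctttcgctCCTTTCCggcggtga
RPS27L (chr15:63157463-63157492, minus strand): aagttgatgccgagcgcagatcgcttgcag
RPL22 (chr1:6199581-6199610, minus strand): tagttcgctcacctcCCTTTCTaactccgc
RPL26 (chr17:8383179-8383208, minus strand): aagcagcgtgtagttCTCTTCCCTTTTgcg
RPL26L1 (chr5:172958714-172958743, plus strand): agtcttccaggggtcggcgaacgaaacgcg

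The libraries held 21496117 to 23868323 counts. SRRM4 itself had 0 counts in all 6 libraries, which allows up to 3 counts, or 0.123 to 0.139 CPM (counts per 1000000 counts), so its RNA could not check the labels. The mesenchymal markers CD44, NT5E, ENG and ALCAM were present in every library at 143 CPM or more. THY1 lay at 123 to 155 CPM in control and 23.8 to 28.8 CPM in SRRM4 KO, and VCAM1 at 6.90 to 10.7 CPM in control and 0.818 to 1.12 CPM in SRRM4 KO. Defining markers of blood and endothelial cells (PTPRC, PECAM1, CDH5) and the epithelial marker EPCAM had at most 3 counts in any library, while KRT18, at 76.0 to 89.2 CPM, KRT8, at 13.04 to 27.0 CPM, and CD14, at 14.7 to 17.5 CPM, were present. CD34 lay at 3.06 to 4.17 CPM, and VWF, CDH1 and ITGAM had at most 46, 39 and 14 counts in a library. Control 1 stood apart from the other control libraries. Its chi-square per degree of freedom against Controls 2 and 3 was 20.9 and 21.4, against 4.93 to 9.13 for the other pairs within a group, and 22403 genes had counts in it against 20127 to 20674 elsewhere. Values without it are given where they differ most.

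Ribosomal protein genes moved little, and upwards more often than downwards. Of 81 members tested, 24 were higher in SRRM4 KO and 3 were lower (edgeR quasi-likelihood test, Benjamini-Hochberg adjusted p under 0.05 over 15341 genes). That is 33.3% of the members, below the 41.6% of all tested genes that passed. Higher calls made up 29.6% of members and 20.7% of all genes, and lower calls 3.70% of members and 20.9% of all genes. The median log2 fold change was 0.18 over members and -0.01 over all genes. No member passed the threshold with a log2 fold change beyond 1, which 12.6% of all genes did. The small subunit had 12 higher and 0 lower of 31 tested with a median of 0.25, and the large subunit had 12 higher and 3 lower of 50 with a median of 0.16. Without Control 1, the small subunit had 13 higher and 2 lower of 32 with a median of 0.11, and the large subunit 16 higher and 9 lower of 50 with a median of 0.06. The libraries of the groups did not overlap in CPM for 29 members that were higher and 5 that were lower, 42.0% of those tested against 51.8% of all genes. In bulk RNA, fewer cells of a type and less RNA per cell cannot be told apart.

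The counts of calls depended on single libraries. Without Control 1, 29 members were higher and 11 lower of 82 tested, beside 22.5% higher and 21.9% lower over all genes (44.5% called), and the median over members was 0.06. All 24 higher and 3 lower members kept their direction and their call in that fit, but 10 rises were over 1.5 times as large with Control 1 as without it. Without SRRM4 KO 2, 12 members were higher and 1, RPL22L1, was lower, with 33.7% of all genes called. Without SRRM4 KO 1, 16 were higher, with 34.3% of all genes called, and without SRRM4 KO 3, 19 were higher, with 35.8%. Without Control 2, 22 were higher (35.8% of all genes called) and without Control 3, 33 were higher (35.6%). Each of these fits had 1 lower member, RPL22L1. Past the threshold in each of the 6 fits were 11 members. RPS19, RPL39, RPS27L, RPL10, RPL39L, RPL23A, RPS20, RPS12 and RPLP1 were among those that were higher, and RPL22L1 was the one that was lower. The share of all genes that passed in all 6 fits at once was not counted, so the 11 members cannot be set against it.

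**Figure D1:**
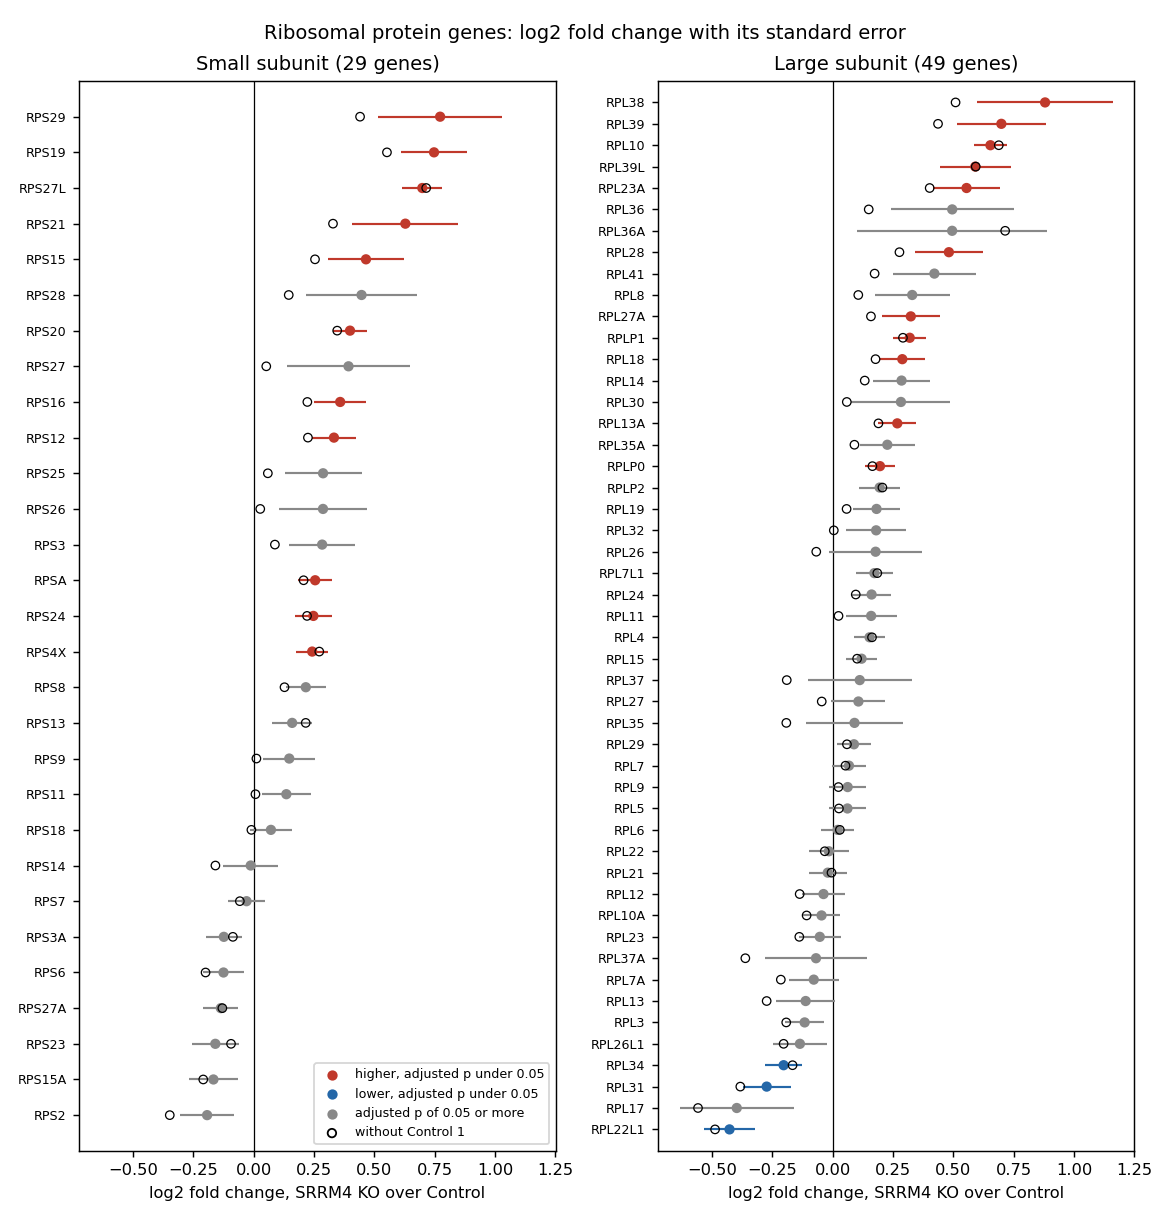
Log2 fold change (SRRM4 KO over Control) of 78 of the 81 tested members, by subunit and ordered by value. Filled points are the fit of all 6 libraries with bars of 1 standard error, red for higher and blue for lower at an adjusted p under 0.05, and open circles the fit without Control 1. The largest value, 0.88, belongs to RPL38, and most open circles lie to the left of the filled points.

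Among small subunit genes, RPS19, RPS29 and RPS27L had the largest rises. RPS19, needed for maturation of the small subunit and mutated in Diamond-Blackfan anemia (ENSG00000105372, chromosome 19, 41859918 to 41872926, plus strand, GRCh38), lay at 365, 564 and 609 CPM in control and at 871, 896 and 815 CPM in SRRM4 KO. All SRRM4 KO libraries were above all controls, and Control 1 was the lowest. The log2 fold change was 0.75 (SE 0.13, adjusted p = 0.000386, edgeR), or 1.68-fold. Without Control 1 it was 0.55 (SE 0.06, adjusted p = 4.05e-08). RPS29, a short zinc-binding protein of the small subunit, lay at 12.2, 29.6 and 33.8 CPM in control and 33.7, 51.6 and 43.8 CPM in SRRM4 KO. SRRM4 KO 1 was just below Control 3, so the groups overlapped. Its log2 fold change of 0.77 (SE 0.26, adjusted p = 0.0254, edgeR) was 0.44 without Control 1 (adjusted p = 0.00874) and was no longer past the threshold without SRRM4 KO 2 or SRRM4 KO 3, with adjusted p = 0.122 and 0.065 by edgeR. RPS27L, a paralog of RPS27 and a known p53 target (ENSG00000185088, chromosome 15, 63125872 to 63158021, minus strand), lay at 169, 156 and 170 CPM in control and at 245, 280 and 279 CPM in SRRM4 KO. Its control libraries were close together, Control 1 included. The log2 fold change was 0.70 (SE 0.08, adjusted p = 7.43e-06, edgeR) and 0.71 without Control 1.

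RPSA, which is also known as the laminin receptor precursor, rose modestly. It lay at 511, 555 and 575 CPM in control and 644, 661 and 651 CPM in SRRM4 KO, without overlap. Its log2 fold change was 0.25 (SE 0.07, adjusted p = 0.00907, edgeR), and without SRRM4 KO 2 the adjusted p was 0.0596 by edgeR. RPS27A, which is made as a fusion with ubiquitin, lay the other way, at 340, 325 and 345 CPM in control and 295, 313 and 311 CPM in SRRM4 KO. The groups did not overlap, but the log2 fold change of -0.14 did not pass (adjusted p = 0.151, edgeR). Among the other small subunit genes that rose were RPS21, RPS15, RPS20, RPS16, RPS12, RPS24 and RPS4X, by 0.24 to 0.63 on the log2 scale. Without Control 1, RPS21 was at 0.33 instead of 0.63, RPS15 at 0.25 instead of 0.47 and RPS16 at 0.22 instead of 0.36. RPS21, RPS15 and RPS16 were called in 4 and RPS24 in 3 of the 6 fits that each leave out 1 library, and RPS21 and RPS15 did not pass with DESeq2 (adjusted p = 0.197 and 0.133). Over both subunits, the 54 members that did not pass had log2 fold changes of -0.40 (RPL17) to 0.50 (RPL36).

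Among large subunit genes the largest fold change was that of RPL38, which in mice is known for its part in translating Hox mRNAs. Its gene is ENSG00000172809 (chromosome 17, 74203582 to 74210655, plus strand). It was at 24.03, 69.1 and 80.7 CPM in control and 91.4, 124 and 105 CPM in SRRM4 KO. The groups did not overlap, but Control 1 was far below the other control libraries. The log2 fold change was 0.88 (SE 0.28, adjusted p = 0.0199, edgeR) with all libraries and 0.51 (SE 0.10, adjusted p = 0.000231) without Control 1. Without SRRM4 KO 2 the adjusted p was 0.0844 by edgeR. RPL39, a very short protein that lines the exit tunnel for the nascent chain (ENSG00000198918, chromosome X, 119786504 to 119791643, minus strand), lay at 77.3, 159 and 149 CPM in control and 191, 209 and 224 CPM in SRRM4 KO. Control 1 was again the lowest by far. Its log2 fold change was 0.70 (SE 0.18, adjusted p = 0.00652, edgeR), and 0.44 without Control 1 (adjusted p = 2.68e-05). With DESeq2, neither RPL38, RPS29 nor RPL39 passed (adjusted p = 0.161, 0.172 and 0.0666).

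RPL10, which joins the large subunit last and helps to form its tRNA sites, had the smallest adjusted p of all members. The gene (ENSG00000147403) lies on the plus strand of X from 154389955 to 154409168. The level was 412, 385 and 382 CPM in control and 620, 623 and 613 CPM in SRRM4 KO. Both groups were tight, and Control 1 was the highest of the control libraries. The log2 fold change was 0.65 (SE 0.07, adjusted p = 2.28e-06, edgeR), or 1.57-fold, and 0.69 without Control 1. Beside the genes described here, RPL23A, RPL28, RPL27A, RPL18 and RPL13A were among the genes of this subunit that rose, by 0.27 to 0.55 on the log2 scale. Without Control 1, RPL28 was at 0.28 instead of 0.48, RPL27A at 0.16 instead of 0.32 and RPL18 at 0.18 instead of 0.29. RPL27A and RPL18 were called in 3, RPL13A in 4 and RPL28 in 5 of the 6 fits that each leave out 1 library.

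The stalk of the large subunit, which recruits elongation factors, is built of RPLP0, RPLP1 and RPLP2. RPLP1 lay at 790, 792 and 880 CPM in control and 1037, 1006 and 1029 CPM in SRRM4 KO. The groups did not overlap, and the log2 fold change was 0.32 (SE 0.07, adjusted p = 0.00147, edgeR). RPLP0 lay at 1071, 1127 and 1154 CPM in control and 1257, 1285 and 1298 CPM in SRRM4 KO, with a log2 fold change of 0.20 (adjusted p = 0.0203, edgeR). It stayed past the threshold in 2 of the 6 fits that each leave out 1 library, and DESeq2 gave an adjusted p of 0.0235. RPLP2 lay at 239, 226 and 240 CPM in control and 294, 272 and 239 CPM in SRRM4 KO. SRRM4 KO 3 fell within the control range, and the log2 fold change of 0.19 did not pass (adjusted p = 0.0836, edgeR).

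RPL5 and RPL11, which bind the small rRNA of the large subunit and, when free, restrain MDM2, did not pass. RPL5 lay at 389, 404 and 432 CPM in control and 400, 434 and 445 CPM in SRRM4 KO (log2 fold change 0.06, SE 0.08, adjusted p = 0.557, edgeR). RPL11 lay at 169, 230 and 230 CPM in control and 225, 239 and 238 CPM in SRRM4 KO (log2 fold change 0.16, SE 0.11, adjusted p = 0.252, edgeR). Both genes overlapped between the groups, and for RPL11 only Control 1 lay outside the range of 225 to 239 CPM that the other 5 libraries covered.

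The members that were lower were RPL22L1, RPL31 and RPL34. RPL22L1, a paralog of the RNA-binding protein RPL22 (ENSG00000163584, chromosome 3, 170864875 to 170870483, minus strand), lay at 34.2, 38.3 and 39.3 CPM in control and 26.8, 27.9 and 28.5 CPM in SRRM4 KO. The groups did not overlap, and the log2 fold change was -0.43 (SE 0.11, adjusted p = 0.00428, edgeR), or 1.34-fold lower. RPL31, a protein near the tunnel exit, lay at 271, 322 and 369 CPM in control and 254, 268 and 275 CPM in SRRM4 KO. Control 1 fell among the SRRM4 KO libraries. Its log2 fold change was -0.27 (SE 0.10, adjusted p = 0.0375, edgeR) and -0.38 without Control 1. RPL34 lay at 273, 253 and 252 CPM in control and 226, 235 and 215 CPM in SRRM4 KO, without overlap, with a log2 fold change of -0.20 (SE 0.08, adjusted p = 0.0467, edgeR). RPL31 and RPL34 both lost the threshold when any library other than Control 1 was left out, with an adjusted p of 0.055 to 0.224 for RPL31 and 0.0733 to 0.141 for RPL34 by edgeR.

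**Figure D2:**
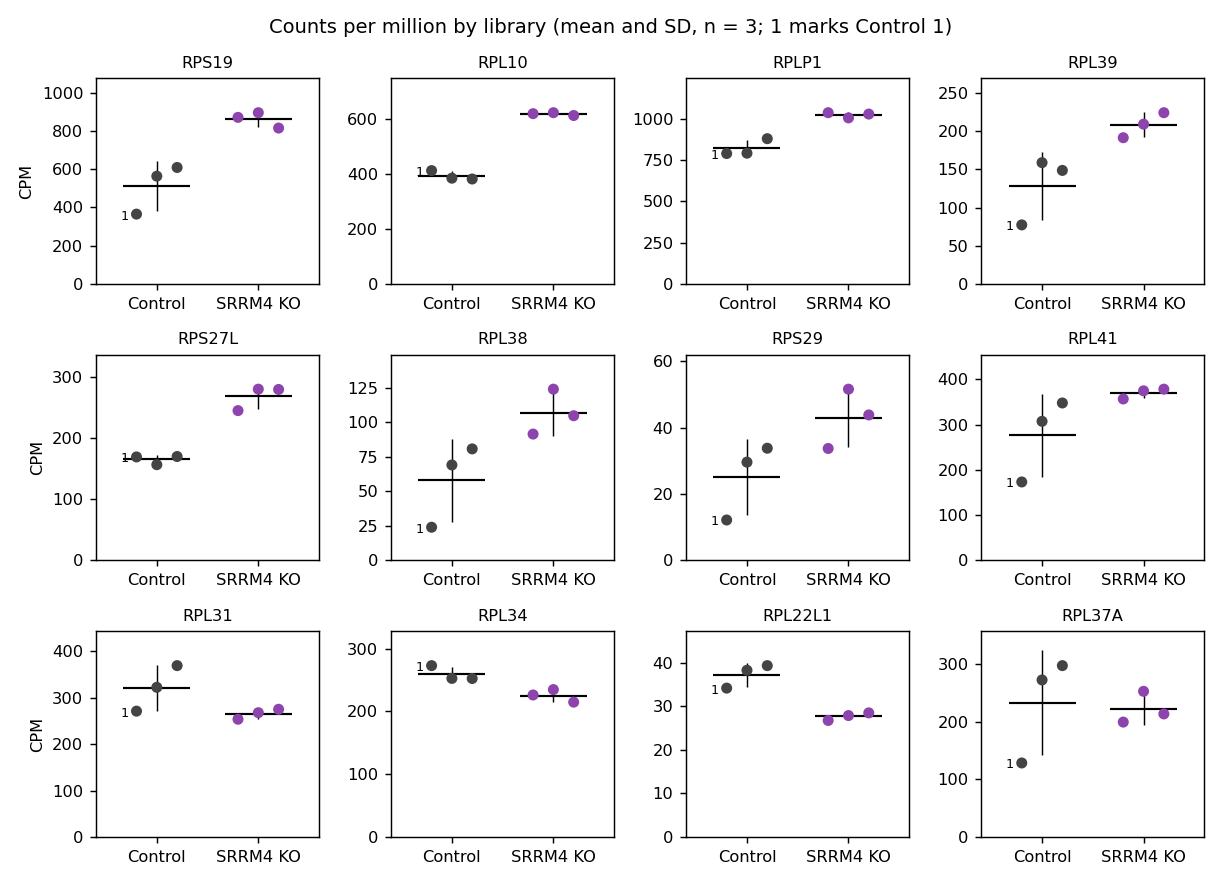
CPM of 12 members in each of the 6 libraries, with the axis from 0. Points are libraries, horizontal lines the means and vertical lines the SD of 3 libraries, and the digit 1 marks Control 1. RPL10 and RPS27L show tight controls below all SRRM4 KO libraries, whereas for RPL38, RPS29, RPL41 and RPL37A Control 1 lies well below Controls 2 and 3.

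Control 1 was low for most members. It was the lowest of the 3 control libraries in 65 of 81 members and the lowest of all 6 libraries in 57. Relative to the mean of Controls 2 and 3, the median over members was -0.35 on the log2 scale in Control 1 and 0.06 in the SRRM4 KO mean. The deviation was largest in the shortest genes. With at most 250 coding bases (7 tested) the median in Control 1 was -1.18, with more than 250 and up to 500 (43 tested) -0.35, and with more than 500 (31 tested) -0.23. The same medians of the SRRM4 KO mean were 0.44, 0.03 and 0.06. Across the 81 members, which share the library and its depth, Pearson's r between log2 coding length and the Control 1 deviation was 0.47 (Spearman's rho 0.36), and across 12861 other protein-coding genes it was 0.23 (rho 0.22).

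Base composition moved with the deviation as well. Across the other protein-coding genes the GC content of the transcript and the Control 1 deviation had r = -0.63 (rho -0.68), and across members r = -0.25 (rho -0.32). In each of 4 GC classes, members lay below the other genes in Control 1. At 45% GC or less the medians were -0.18 over 17 members and 0.21 over 4700 other genes, and above 55% GC they were -0.52 over 16 members and -0.26 over 4009 other genes. When trends with GC and coding length were fitted on the other genes of each library and removed, 34 members were higher and 9 lower of 81, beside 29.3% higher and 28.9% lower over all genes in that fit (58.2% called). All 24 higher and 3 lower members of the fit without this correction were among them. The part of GC content and length in the remaining differences between groups was not tested.

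**Figure D3:**
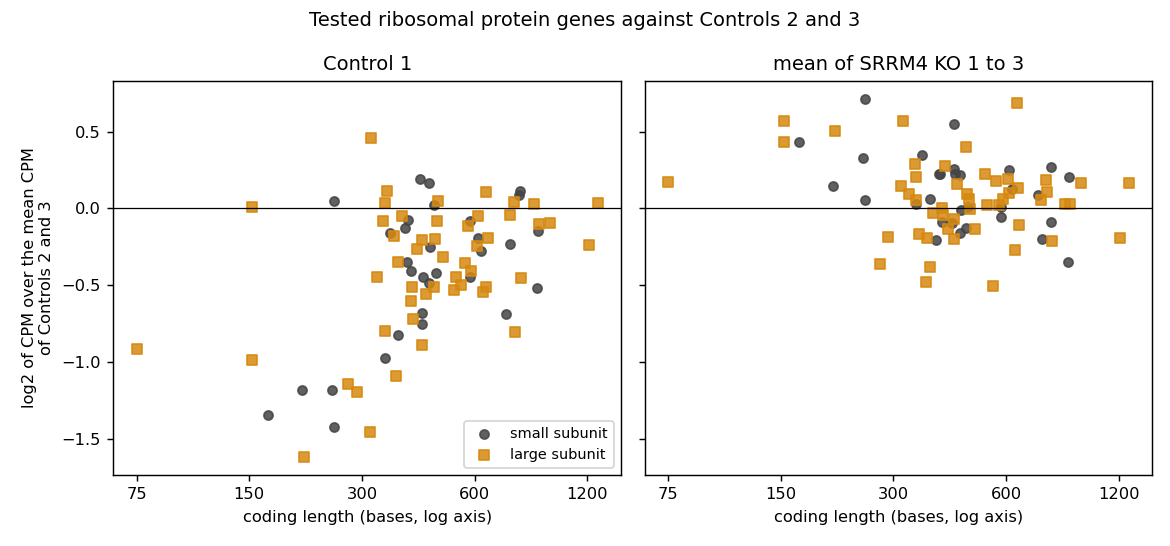
Log2 ratio of CPM to the mean CPM of Controls 2 and 3 for the 81 tested members against coding length in bases (log axis), for Control 1 at left and the mean of the SRRM4 KO libraries at right. Circles are small and squares large subunit genes. The shortest members fall lowest in Control 1, with RPL38 at -1.62, while the SRRM4 KO values lie on both sides of 0.

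A further 13 members passed when Control 1 was left out but not with all libraries. The share of all genes with that change was not counted. Of all genes, 41.6% passed with all libraries and 44.5% without Control 1. RPL41, RPLP2, RPL7L1, RPS13 and RPL4 were higher, with log2 fold changes of 0.16 to 0.22. RPL37, RPL35, RPL37A, RPL7A, RPL13, RPL3, RPS6 and RPS2 were lower, with log2 fold changes of -0.36 to -0.19. RPL37 and RPL35 changed sign, since with all libraries they were at 0.11 and 0.09 (adjusted p = 0.715 and 0.751, edgeR). These genes are named because the count without that library includes them. RPS6, the substrate of the S6 kinases, had a log2 fold change of -0.20 in that fit (adjusted p = 0.0103, edgeR) and -0.13 with all libraries (adjusted p = 0.256). RPL41, the member with the fewest coding bases (75), lay at 173, 307 and 348 CPM in control and 357, 375 and 379 CPM in SRRM4 KO. Its log2 fold change was 0.42 with all libraries (adjusted p = 0.0606, edgeR) and 0.17 without Control 1 (adjusted p = 0.0282).

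Each paralog was set beside its core partner, both per kilobase of coding length. RPL22L1 stood at 35.8% ± 2.16 of RPL22 in control and 26.9% ± 1.11 in SRRM4 KO (SD, n = 3), without overlap. RPL22 itself lay at 107, 106 and 115 CPM in control and 109, 109 and 107 CPM in SRRM4 KO and overlapped between the groups (log2 fold change -0.02, adjusted p = 0.898, edgeR). RPS27L stood at 200, 71.3 and 71.9% of RPS27 in control and 126, 105 and 112% in SRRM4 KO. In the library with the value of 200%, Control 1, RPS27 was at 84.4 CPM, against 219 and 236 CPM in Controls 2 and 3. RPS27 lay at 194, 266 and 250 CPM in SRRM4 KO and did not pass (log2 fold change 0.39, adjusted p = 0.236, edgeR), with 0.05 without Control 1.

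RPL39L, best known from testis, was scarce, at 10.1, 9.09 and 11.1 CPM in control and 14.6, 17.2 and 13.9 CPM in SRRM4 KO. It rose by 0.59 on the log2 scale (SE 0.15, adjusted p = 0.00456, edgeR) and by 0.59 without Control 1. As its partner RPL39 rose too, the ratio of RPL39L to RPL39 was 13.1, 5.73 and 7.45% in control and 7.65, 8.21 and 6.19% in SRRM4 KO and overlapped. RPL7L1 stood at 39.6% ± 1.32 of RPL7 in control and 42.7% ± 2.53 in SRRM4 KO. RPL7 had a log2 fold change of 0.07 (adjusted p = 0.484) and RPL7L1 one of 0.17 (adjusted p = 0.0854, both edgeR). RPL26L1 had a log2 fold change of -0.14 (adjusted p = 0.363, edgeR) and stood above RPL26 in every library, at 118 to 228% of it. RPL26 and RPL22 share 71.0% and 59.9% of their coding bases with exons of another gene, so the ratios to them are uncertain.

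The tissue-restricted paralogs were at or near 0. RPL10L, an intronless copy known from testis, had 0 counts in all 6 libraries, which allows up to 3 counts in each. RPL3L, known from striated muscle, had 8, 2 and 8 counts in control and 0 in each SRRM4 KO library, so it was at least 2.08-fold lower against 3 counts per library. It did not pass the filter on low counts, and in a fit without that filter it was called lower (adjusted p = 0.0325, edgeR). RPL3, its widely expressed partner at the peptidyl transferase centre, lay at 918, 1070 and 1095 CPM in control and 956, 1009 and 880 CPM in SRRM4 KO, with overlap (log2 fold change -0.12, adjusted p = 0.268, edgeR).

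Levels of the core members differed widely for proteins needed in near equal amounts. Per kilobase of coding length, and averaged over all libraries, RPL41 was the highest at 4310 CPM, followed by RPLP1 at 2696 and RPS19 at 1579. Untranslated parts are not in this length, which raises the value of a gene as short as RPL41 with its 75 coding bases. The order depends on the length used. Per kilobase of the deposited gene length, RPS12 was the highest at 559 CPM, followed by RPL13A at 352 and RPS2 at 307, while RPL41, RPLP1 and RPS19 were at 297, 282 and 181. The lowest members were RPL10L, RPL3L and RPS10. RPS10, a core protein of the small subunit, had 4, 1 and 7 counts in control and 24, 8 and 13 in SRRM4 KO and did not pass the filter on low counts with all libraries. Without that filter it was not called (adjusted p = 0.114, edgeR).

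The lowest core members lie where genes overlap. In the annotation, 10 of 77 core members share over 30% of their coding bases with exons of another gene. Their median level was 68.3 CPM per coding kilobase, against 690 for the other 67, and 9 of the 10 lay below the lowest of those, 203. RPL17 (100% shared), RPL36A (94.3%) and RPS10 (92.1%) overlap readthrough genes on the same strand, RPL17-C18orf32, RPL36A-HNRNPH2 and RPS10-NUDT3. These partners had 0 to 2 counts in any library. The libraries did not keep strand, and how the authors' counting treated reads that fall on 2 genes is not given in the sources used here. The levels of these 10 genes, RPL26 and RPL22 included, are therefore uncertain, and 1 of the 9 tested (RPL23A) was called, beside 41.6% of all genes.

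**Figure D4:**
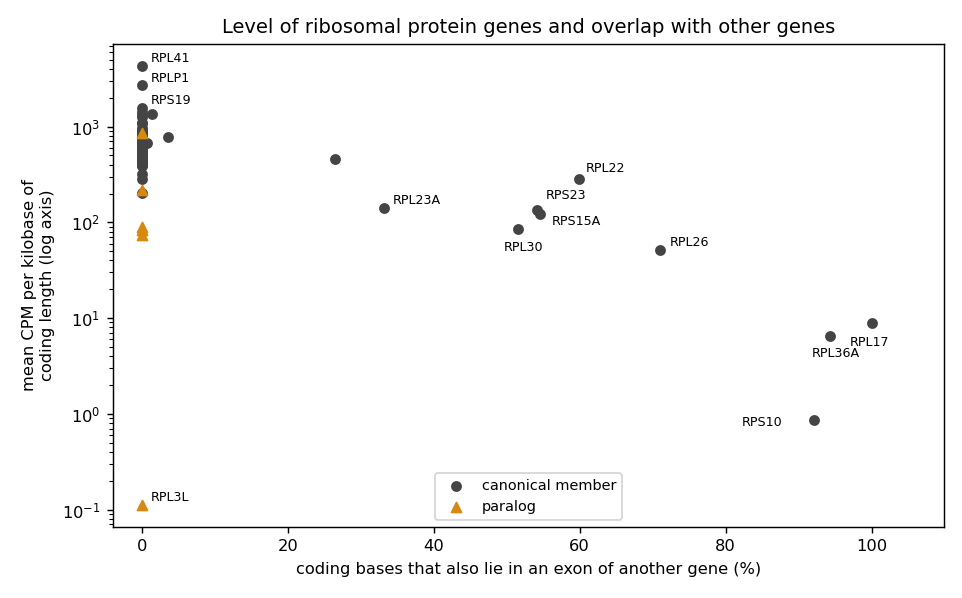
Mean CPM per kilobase of coding length (log axis) against the percent of coding bases that also lie in an exon of another gene, for 82 of the members with counts. Circles are core members and triangles paralogs. RPL17, RPL36A and RPS10 lie at the lower right, below 10 CPM per kilobase, and RPL41 at the upper left.

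Members tended to move with their chromosome. Across the 81 tested members, which lie on 21 chromosomes, the log2 fold change and the median log2 fold change of the other tested genes of the same chromosome had r = 0.65 (rho 0.65), and 0.68 (rho 0.64) without Control 1. Members of 1 chromosome share their x value. On X, 3 of 4 members were called, all higher, and the median was 0.57, while the 521 other genes tested on X had a median of 0.31, with 43.2% of them higher. On chromosome 19, 8 of 12 were called, all higher, and all 12 were above 0, with a median of 0.37 against 0.13 over 1015 other genes, of which 24% were higher. Without Control 1, the members on X had a median of 0.56 and those on chromosome 19 one of 0.21, with 0.34 and 0.06 over the other genes. On chromosome 17, 2 of 6 members were called higher, beside 35.8% of 914 other genes. The medians there were 0.18 over members and 0.21 over the other genes. Without Control 1 they were 0.006 and 0.17, so the members of this chromosome then did not share its rise. On chromosomes 2, 9 and 16 the medians of the members were -0.10, -0.06 and -0.17, and those of the other genes were -0.25, -0.24 and -0.28. Of the 4, 4 and 3 members there, 1, 0 and 0 were called lower, while 38.5, 37.1 and 34% of the other genes were. Without Control 1, the members were at -0.25, -0.20 and -0.27, with 2, 3 and 2 called lower, and the other genes at -0.22, -0.25 and -0.32, with 38.2, 39.1 and 39.9% called lower. The karyotype was not measured here.

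The members on X were RPL10, RPL39, RPS4X and RPL36A. RPS4X lay at 693, 645 and 657 CPM in control and 772, 799 and 790 CPM in SRRM4 KO, without overlap, and rose by 0.24 on the log2 scale (SE 0.07, adjusted p = 0.00838, edgeR). Without SRRM4 KO 2 it did not pass (adjusted p = 0.0566, edgeR), nor with a gene length offset (0.16, adjusted p = 0.0797). After the chromosome's median was subtracted, its value was -0.07. RPL10 and RPL39 kept 0.34 and 0.39. RPL36A had 21 to 74 counts in a library and did not pass (log2 fold change 0.50, SE 0.39, adjusted p = 0.343, edgeR). RPL22L1 lies on chromosome 3, whose other genes had a median of 0.11, and its value relative to them was -0.54.

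**Figure D5:**
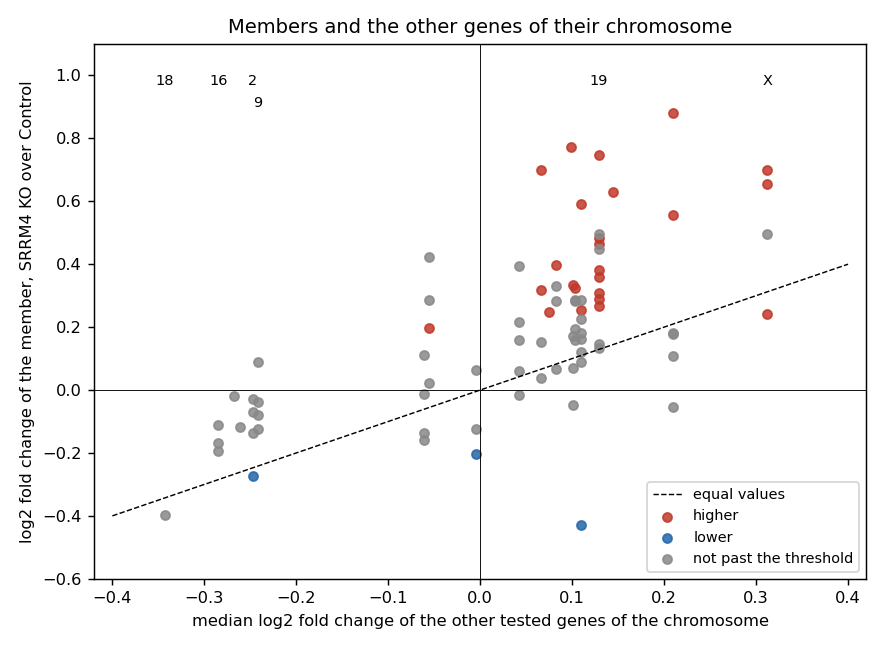
Log2 fold change of each of the 81 tested members against the median log2 fold change of the other tested genes of its chromosome. Red points were higher and blue points lower at an adjusted p under 0.05, the dashed line marks equal values, and some chromosomes are named at the top. Members on X and 19 lie to the right and above 0, and those on 2, 9, 16 and 18 at the left and mostly below 0.

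As a share of all counts, members took 2.15, 2.59 and 2.69% in control and 2.86, 3.01 and 2.88% in SRRM4 KO. The means were 2.48% ± 0.289 and 2.92% ± 0.0797 (SD, n = 3), and the groups did not overlap. The ratio was 1.18, and 1.11 without Control 1. These shares are of counts that were not scaled between libraries. In CPM, the median log2 ratio of members to Controls 2 and 3 was 0.034 in Control 3 and 0.029 in SRRM4 KO 1. These medians therefore overlapped between the groups. An exact permutation test of 3 against 3 cannot go below p = 0.10, so none is given. Genes of the mitochondrial genome took 1.34% ± 0.211 in control and 0.958% ± 0.155 in SRRM4 KO. With their counts left out, the ratio of the member shares was 1.17. The genome also holds many processed copies of these genes. By symbol, 1144 annotated pseudogenes belong to members, most to RPL23A (91), RPSA (74) and RPL21 (66), and 273 of them had counts. Together they took 0.0985% ± 0.0118 in control and 0.114% ± 0.00317 in SRRM4 KO.

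Members with and without a TOP start were counted separately. Of 46 tested members with such a start, 15 were higher and 3 lower with a median of 0.20, and of 19 tested members without it, 4 were higher and 0 lower with a median of 0.15, beside 20.7% higher and 20.9% lower over all genes. Without Control 1, 18 were higher and 8 lower of 47 with the start (median 0.09), and 6 were higher and 1 lower of 19 without it (median 0.03), beside 22.5% and 21.9% over all genes. The difference between these groups was not tested.

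Other parts of the translation machinery were read from the same fit, with the background of 20.7% higher and 20.9% lower. A list of ribosomal proteins that the naming rule does not match had 2 higher and 0 lower of 4 with a median of 0.30 (0.18 without Control 1). RPL36AL, a copy of RPL36A, rose by 0.72 on the log2 scale (SE 0.14, adjusted p = 0.000684, edgeR). FAU, the precursor of RPS30, and the scaffold RACK1 had 0.17 and 0.09 and did not pass (adjusted p = 0.263 and 0.468, edgeR). Mitochondrial ribosomal proteins, which build a separate ribosome, had 20 higher and 5 lower of 78 with a median of 0.13. Of the higher ones, 2 were beyond a log2 fold change of 1 and 0 without Control 1, beside 12.6% of all genes in either direction with all libraries. MRPL37 (0.31) and MRPS16 (0.36) were higher, and MRPS35 (-0.26) and MRPL19 (-0.30) lower. MRPL19 did not pass without Control 1 (adjusted p = 0.0593, edgeR), and the median of the list was then 0.08.

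Genes with an EIF symbol, which are initiation factors and some of their inhibitors, had 12 higher and 6 lower of 53 with a median of 0.04. The inhibitors EIF2AK2 (0.47, higher) and EIF4EBP1 (-0.47, lower) are in these counts. EIF4EBP1 is also in the list of regulators below. Of the lower genes, 1 was beyond a log2 fold change of 1 (0 with DESeq2), beside 12.6% of all genes in either direction. EIF4G1 (0.21) and EIF4A2 (0.23) of the cap-binding complex were higher, EIF4G1 not without Control 1 (0.13, adjusted p = 0.0522, edgeR), and EIF4B (-0.19) and EIF3L (-0.34) were lower. Elongation factors and other TOP mRNAs had 5 higher and 2 lower of 16 with a median of 0.04, and 5 higher and 4 lower with a median of 0.03 without Control 1. NPM1 (0.22), a nucleolar chaperone, and HNRNPA1 (0.63) were higher, and TPT1 (-0.22) was lower, as was EIF4B, which this list holds too. Factors of rRNA processing and ribosome assembly had 11 higher and 3 lower of 46 with a median of 0.11 (0.09 without Control 1). NOP56 (0.57), of the methylation-guiding particles, and NMD3 (0.29), an export adaptor, were higher, while SBDS (-0.70) and PES1 (-0.38) were lower.

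RNA polymerase I, which makes the large rRNAs, and its factors had 2 higher and 5 lower of 15 with a median of -0.20. The subunit POLR1A (-0.30) and the initiation factor RRN3 (-0.35) were lower, and TAF1D (0.32) and ZNRD1 (0.77) were higher. Without Control 1 the median was -0.098, and ZNRD1 did not pass (adjusted p = 0.0852, edgeR). Regulators of ribosomal protein mRNA, mostly of the mTOR pathway, had 3 higher and 7 lower of 18 with a median of -0.16, and 3 higher and 9 lower with a median of -0.21 without Control 1. LARP1 (-0.23), which binds TOP mRNAs, and PDCD4 (-0.31) were lower, and RPTOR (0.48), the mTOR partner, was higher. NAP1L4 (0.50), which the list also holds though it is a histone chaperone and not such a regulator, was higher too. DEPTOR, an inhibitor bound to mTOR, was the sole gene of these regulators beyond a log2 fold change of 1. It was named after its value was seen. DEPTOR lay at 6.29 ± 1.42 CPM in control and 0.452 ± 0.0931 CPM in SRRM4 KO (SD, n = 3), with a log2 fold change of -3.78 (SE 0.32, edgeR).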

How the data were processed

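Total RNA of 3 UE7T-9 control and 3 SRRM4 KO libraries was sequenced as mRNA. The authors deposited the whole-number read count of each gene, not normalized, and the submitters' processing notes name HISAT2 2.0.5, featureCounts 1.5.0-p3 and DESeq2 without a role. How reads on several genes or copies were counted is not given in the sources used here. All 58735 gene IDs had the coordinates of GENCODE release 29 (GRCh38). Counts were tested with edgeR 4.0.16 (R 4.3.3; TMM, filterByExpr with a minimum count of 10, quasi-likelihood test, Benjamini-Hochberg over 15341 genes; threshold 0.05), and with DESeq2 1.42.0 as an alternative. SE is the log2 fold change divided by the root of F. CPM uses TMM-scaled library sizes. Log2 ratios to Controls 2 and 3 add 0.5 CPM. Coding length and transcript GC are those of 1 GENCODE transcript per gene. Length and GC trends were fitted by loess (span 0.5) on genes that are no members and entered as offsets. Start sequences are RefSeq's (GRCh38.p14), and with several starts the one with the longest pyrimidine run is shown.

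Members and lists were chosen with earlier results of these data known. Named were members past the fold threshold, the 6 largest rises and 6 largest falls past the adjusted p with a mean of at least 100 counts, the 3 highest and 3 lowest levels per kilobase, paralogs with their partners, stalk proteins, RPL5, RPL11, RPS27A, RPSA, members on X, and at most 2 called genes per direction and related list, by mean CPM. Other names were added after values were seen. Some genes that the rule or the lists take are counted but not reported here by name. Depth was 21496117 to 23868323 counts, and a count of 0 allows up to 3 counts, for counting error only. The procedures were tested on simulated data. Alternatives were other scalings and filters, protein-coding genes alone, DESeq2, the replicate number as a block, offsets, added pseudogene counts, subtracted chromosome medians and each library left out.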

Additional observations from a re-analysis of the deposited data

How the results depend on the processing

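Limits of these data are that Control 1 differs from the other control libraries by trends with coding length and transcript GC content, and that the SRRM4 KO line is 1 clone. Genes with overlaps or processed copies may also lose or share reads. Of 81 members tested, 24 were higher and 3 lower, and over the related lists 55 were higher and 26 lower of 221, beside 20.7% and 20.9% over all genes. Leaving out 1 library at a time gave 12 to 33 higher and 1 to 11 lower members, 0 to 2 higher members beyond a log2 fold change of 1 (RPL38, RPS29 and RPS10), and 36 to 57 higher and 14 to 33 lower genes of the related lists. Scaling by total counts gave 34 higher members and 1 lower (24.5% and 18.3% over all genes) and 72 higher and 16 lower related genes. Without a filter on low counts, 34 members were higher and 3 lower of 83 (11.9% and 12.2% of 27405 genes), and 1 (RPL3L) was lower beyond a log2 fold change of 1. A gene length offset gave 27 higher and 7 lower members (21.7% and 21.8%). Added after the data were seen, a GC offset gave 35 higher and 7 lower members (28.5% and 28.3%), and GC with coding length 34 and 9 (29.3% and 28.9%), with 72 higher and 45 lower related genes. Without Control 1, coding length as an offset gave 28 higher and 15 lower members (25.8% and 25.6%), and GC with coding length 31 and 20 (27.6% and 27.9%), with 60 higher and 44 lower related genes. The cause of these shifts was not tested. Adding pseudogene counts brought the mean share of members to 2.57% in control and 3.03% in SRRM4 KO, with the ratio at 1.18 as before.

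The same replicate number does not pair the libraries: deviations of same-numbered libraries correlated at -0.0862, 0.110 and -0.102. With the replicate number as a block, 33 members were higher and 2 lower (20% and 19.9% over all genes), 1 of them (RPL38) higher beyond a log2 fold change of 1. With the block, 26 members were higher and 6 lower under the gene length offset (20.3% and 20.5%), 47 and 7 under the GC offset (28.9% and 28.4%), and 40 and 11 under GC with coding length (29.5% and 28.9%), with 72 higher and 43 lower related genes.

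The sign changed for some members. RPL22 was at 0.047 by total counts, 0.0089 with pseudogene counts, and -0.039 to 0.020 over the fits that each leave out 1 library. RPL7 was at -0.020 with the gene length offset, with and without the block. RPL26 was at -0.068 to 0.38 when 1 library was left out, and at -0.082 without Control 1 under the coding length offset. Without Control 1 under GC and coding length, RPL26, RPL5, RPL7 and RPL11 were at -0.12, -0.025, -0.0031 and -0.0020. RPS4X, which was called, was at -0.070 with the median of its chromosome subtracted. RPL37 and RPL35, at 0.11 and 0.09 with all libraries, were at -0.19 each without Control 1. They are 2 of the 6 members whose sign differed in that fit.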
